A study of Mus musculus with 8 samples.

Results

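The 7 crossover formation genes described here are Msh4, Msh5, Mlh3, Tex11, Rnf212, Ccnb1ip1 and Cntd1. They were chosen by name for their known place in meiotic crossover formation, by a rule that uses no measured value but was written with earlier results of these data known, and all 7 were found among the 21959 genes of the expression table. RNA was sequenced from oocytes of mouse ovaries at postnatal day 1 (P1), from Rbpms2 knockout (KO) mice in 4 libraries and from wild-type (WT) mice in 4 libraries. Rbpms2 encodes an RNA-binding protein, and the comparison asks which oocyte transcripts differ where the gene is deleted. Each library came from a tube of 5 to 10 cells that were taken from dissociated ovaries by mouth pipette as putative primordial oocytes and amplified for 18 cycles. The labels give no strain, no part of Rbpms2 that is deleted and no animal for each tube, so each p-value speaks of variation from tube to tube, and this variation may be technical.

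Crossovers are exchanges between homologous chromosomes that hold each pair together until the first meiotic division. They arise from a few of the many programmed DNA breaks of meiotic prophase: the ZMM proteins mark and stabilise recombination intermediates, RING-finger and cyclin-like proteins reduce and mature these sites, and the MutL gamma nuclease cuts the remaining intermediates into crossovers. In female mice this takes place in the fetal ovary, and around birth oocytes reach the long dictyate arrest that precedes follicle growth.

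The libraries held 9554090 to 14526326 reads in the listed genes in KO and 8310774 to 11926922 in WT, as recovered from the steps of the deposited values. Values are in FPKM (sequenced fragments of a gene scaled by its exon length and by the depth of the library). Rbpms2 had 38.4, 58.3, 31.0 and 42.5 FPKM in KO replicates 1 to 4, against 158.1, 167.4, 135.8 and 212.8 FPKM in WT replicates 1 to 4. Every KO library was below every WT library, with RNA of the locus still present in KO. Of the oocyte markers, the germ cell genes Ddx4, Dazl and Sycp3 were higher in KO, and Figla and Zp3 were lower. Zp3, a gene of the egg coat, was at 0 to 0.444 FPKM in KO and 443.8 to 1091 FPKM in WT. The 8 pregranulosa markers summed to 7.69 to 262.1 FPKM in KO and 1.65 to 42.7 FPKM in WT, and the 7 stromal markers to 4.83 to 317.5 FPKM in KO and 3.37 to 72.2 FPKM in WT. The 7 immune markers summed to 16.1 to 305.8 FPKM in KO and 0.126 to 16.6 FPKM in WT, overlapping ranges. The 6 endothelial markers summed to 3.02 to 118 FPKM in KO and 1.04 to 2.66 FPKM in WT, ranges that did not overlap. The 5 erythroid markers reached 2768 FPKM in KO and 5098 FPKM in WT, and the 5 surface epithelium markers 123 FPKM in KO and 12.7 FPKM in WT. KO replicate 3 had the largest pregranulosa, stromal and immune sums of the 8 libraries and KO replicate 1 the largest endothelial sum. The part of these cells in the results below was not tested, and in bulk RNA fewer cells of a type and less RNA per cell cannot be told apart.

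Of the 7 crossover formation genes, Tex11, Rnf212, Ccnb1ip1 and Cntd1 were higher in KO oocytes and Msh4, Msh5 and Mlh3 did not pass the test. A gene was called at a Benjamini-Hochberg adjusted p under 0.05 in limma on log2(FPKM + 1). Over all 11235 genes tested, 17.7% were called higher in KO, 25.6% lower and 43.4% in either direction. Of the 7 genes, 4 were called higher and 0 lower with limma, and limma-voom on recovered reads gave the same counts, as did an unadjusted p under 0.05. The median log2 fold change of the 7 genes was 1.43, against -0.12 over all genes tested. All 4 KO libraries lay above all 4 WT libraries for 4 of the 7 genes, a pattern found for 15.9% of tested genes, while 24% had all KO libraries below all WT libraries and 39.9% had groups apart in either direction. These counts describe the 7 genes and are not support for a change of the group: Cntd1 was at 1 FPKM or more in 0 WT libraries and passed the filter on low values through its KO libraries alone. Msh5 was at 1 FPKM or more in 3 WT libraries and would not have passed that filter without its KO libraries.

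**Figure D1:**
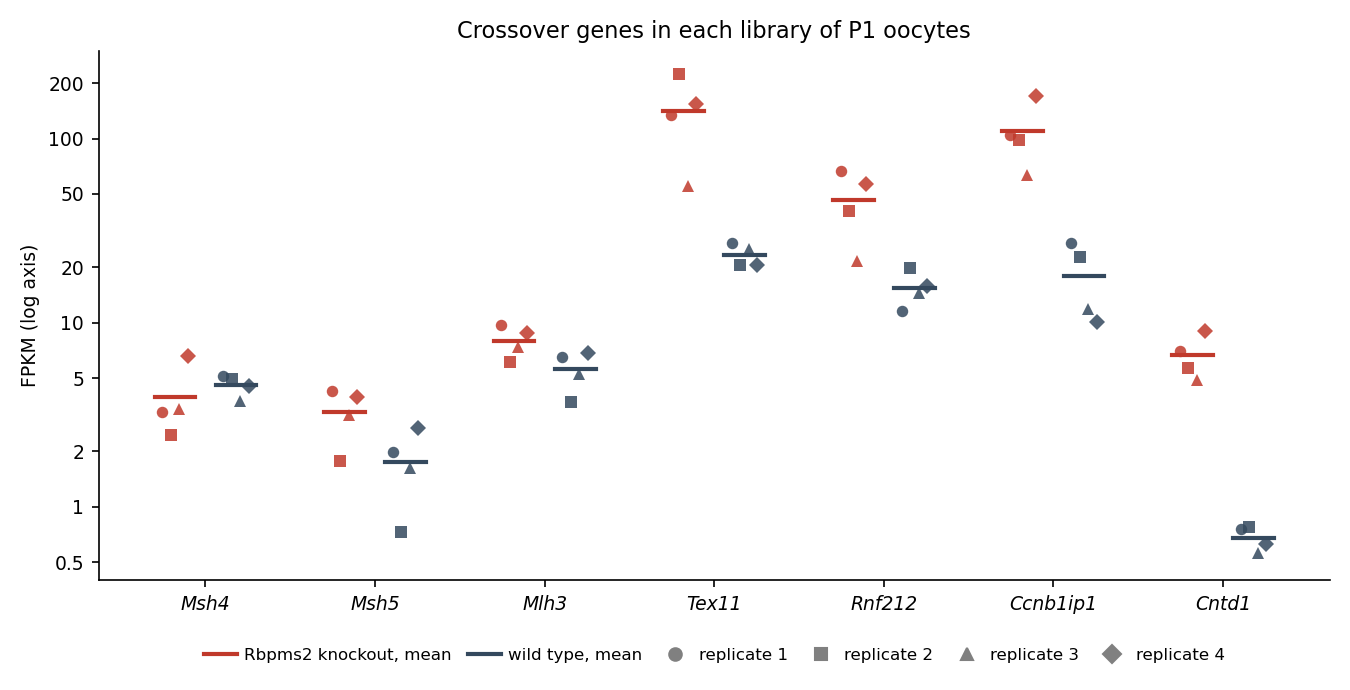
Level of each crossover formation gene in every library, in FPKM on a log axis, with KO left of WT. Each point is a library and each bar the mean of 4. The groups are apart for Tex11, Rnf212, Ccnb1ip1 and Cntd1 and overlap for Msh4, Msh5 and Mlh3.

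Tex11 lies on the X chromosome (ENSMUSG00000009670, GRCm38, X from 100838648 to 101059667, minus strand) and encodes a ZMM protein related to yeast Zip4. It had 133.5, 224.8, 55.2 and 153.6 FPKM in KO replicates 1 to 4, against 27.0, 20.5, 25.1 and 20.5 FPKM in WT replicates 1 to 4. All KO libraries were above all WT libraries, and KO replicate 3 was the lowest of the KO group while WT varied little. The means were 141.8 ± 69.7 FPKM in KO and 23.3 ± 3.31 FPKM in WT (SD, n = 4 each), a ratio of 6.09. On the log2(FPKM + 1) scale the difference was 2.40 with a standard error of 0.36 and a 95% interval of 1.62 to 3.19 (limma adjusted p = 0.000396). The exact two-sided permutation p was 0.0286, the smallest that 4 against 4 libraries allow.

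Rnf212 (ENSMUSG00000055385, chromosome 5, 108729290 to 108774982, minus strand) encodes a RING-finger protein, related to SUMO ligases, that stabilises MutS gamma at designated sites. It had 66.4, 40.6, 21.6 and 56.6 FPKM in KO replicates 1 to 4, against 11.6, 19.7, 14.5 and 15.8 FPKM in WT replicates 1 to 4. The groups did not overlap, but KO replicate 3 was only 1.09 times the highest WT library. The means were 46.3 ± 19.6 FPKM in KO and 15.4 ± 3.36 FPKM in WT (SD, n = 4 each), a ratio of 3.00. The log2 difference was 1.43 with a standard error of 0.33 and a 95% interval of 0.71 to 2.15 (limma adjusted p = 0.0049; permutation, exact and two-sided, p = 0.0286).

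Ccnb1ip1 (ENSMUSG00000071470, chromosome 14, 50789248 to 50807732, minus strand) encodes HEI10, a RING-finger protein related to ubiquitin ligases that limits the sites RNF212 protects. It had 105.1, 98.3, 63.6 and 170.3 FPKM in KO replicates 1 to 4, against 27.0, 22.6, 11.9 and 10.1 FPKM in WT replicates 1 to 4. The groups were well apart, the lowest KO library being 2.36 times the highest WT library. Means of 109.3 ± 44.5 FPKM in KO and 17.9 ± 8.19 FPKM in WT (SD, n = 4 each) gave a ratio of 6.11. The log2 difference was 2.57 with a standard error of 0.36 and a 95% interval of 1.78 to 3.36 (limma adjusted p = 0.00027; permutation, exact and two-sided, p = 0.0286). In GENCODE M21, 233 of its 1883 exon bases also belong to Rpph1 on the same strand, and reads from there cannot be told apart.

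Cntd1 (ENSMUSG00000078653, chromosome 11, 101279012 to 101296317, plus strand) encodes a cyclin-like protein needed for crossover sites to mature. It had 7.02, 5.68, 4.86 and 9.01 FPKM in KO replicates 1 to 4, against 0.758, 0.774, 0.563 and 0.625 FPKM in WT replicates 1 to 4. The KO libraries stood far from the WT libraries and the lowest was 6.28 times the highest WT value. Means of 6.64 ± 1.81 FPKM in KO and 0.680 ± 0.103 FPKM in WT (SD, n = 4 each) gave a ratio of 9.77, the highest of the 7 genes. The log2 difference was 2.16 with a standard error of 0.27 and a 95% interval of 1.56 to 2.76 (limma adjusted p = 0.00014; permutation, exact and two-sided, p = 0.0286). For so low a gene that size depends on the pseudocount, with 3.08 at 0.1 and 1.02 at 5, both called. The values rest on 256 to 381 reads per KO library and 21 to 40 reads per WT library.

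Cntd1 shares 3104 of its 4421 exon bases with Becn1, an autophagy gene on the opposite strand, and 82 with Coa3. The strand setting of the counting is not given in the sources used here, so how reads from the shared bases were counted is not known. Becn1 had 876 to 1975 reads per KO library and 339 to 1139 per WT library, against 256 to 381 and 21 to 40 for Cntd1. The part of shared reads in the values of Cntd1 was not tested. Becn1 had 19.2, 19.2, 10.4 and 24.5 FPKM in KO replicates 1 to 4, against 13.5, 9.93, 5.68 and 9.37 FPKM in WT replicates 1 to 4. It was also higher in KO, with overlapping groups and a ratio of 1.91 (log2 difference 0.86, limma adjusted p = 0.0451). Coa3 was lower in KO, at 35.4 ± 7.33 FPKM against 94.3 ± 14.9 FPKM in WT (SD, n = 4 each; log2 difference -1.40, limma adjusted p = 0.000326).

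Msh4 and Msh5 encode the MutS gamma pair, which closes as a clamp around recombination intermediates. Msh4 (ENSMUSG00000005493, chromosome 3, 153857149 to 153906138, minus strand) had 3.29, 2.45, 3.41 and 6.63 FPKM in KO replicates 1 to 4, against 5.11, 4.95, 3.75 and 4.53 FPKM in WT replicates 1 to 4. KO replicates 1 to 3 were below every WT library and KO replicate 4 above every one. The means were 3.94 ± 1.84 FPKM in KO and 4.58 ± 0.611 FPKM in WT (SD, n = 4 each). In GENCODE M21, 125 of its 6895 exon bases also belong to a small nucleolar RNA gene on the opposite strand. The log2 difference of -0.23 had a standard error of 0.30 and a 95% interval of -0.89 to 0.42 (limma adjusted p = 0.543; permutation, exact and two-sided, p = 0.371). The interval holds differences in both directions.

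Msh5 (ENSMUSG00000007035, chromosome 17, 35028605 to 35046745, minus strand) had 4.24, 1.78, 3.15 and 3.95 FPKM in KO replicates 1 to 4, against 1.99, 0.729, 1.63 and 2.67 FPKM in WT replicates 1 to 4. KO replicates 1, 3 and 4 were above every WT library and KO replicate 2 lay among them. With means of 3.28 ± 1.10 FPKM in KO and 1.75 ± 0.810 FPKM in WT (SD, n = 4 each), the log2 difference was 0.65 with a 95% interval of -0.09 to 1.38. It was not called (limma adjusted p = 0.139; permutation, exact and two-sided, p = 0.0857). After the trend of the values with transcript GC content was removed within each library, the difference was 1.08 and was called (limma adjusted p = 0.0247). Its counts were 143 to 274 reads per KO library and 40 to 131 reads per WT library.

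Mlh3 (ENSMUSG00000021245, chromosome 12, 85234520 to 85270599, minus strand) encodes the subunit of MutL gamma that carries the nuclease active site. It had 9.69, 6.09, 7.36 and 8.82 FPKM in KO replicates 1 to 4, against 6.47, 3.72, 5.29 and 6.87 FPKM in WT replicates 1 to 4. As for Msh5, KO replicate 2 was the library that lay within the WT range. The means were 7.99 ± 1.59 FPKM in KO and 5.59 ± 1.42 FPKM in WT (SD, n = 4 each). The log2 difference of 0.46 had a 95% interval of -0.12 to 1.04 (limma adjusted p = 0.178; permutation, exact and two-sided, p = 0.0857), and it was 0.04 after the GC trend was removed.

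**Figure D2:**
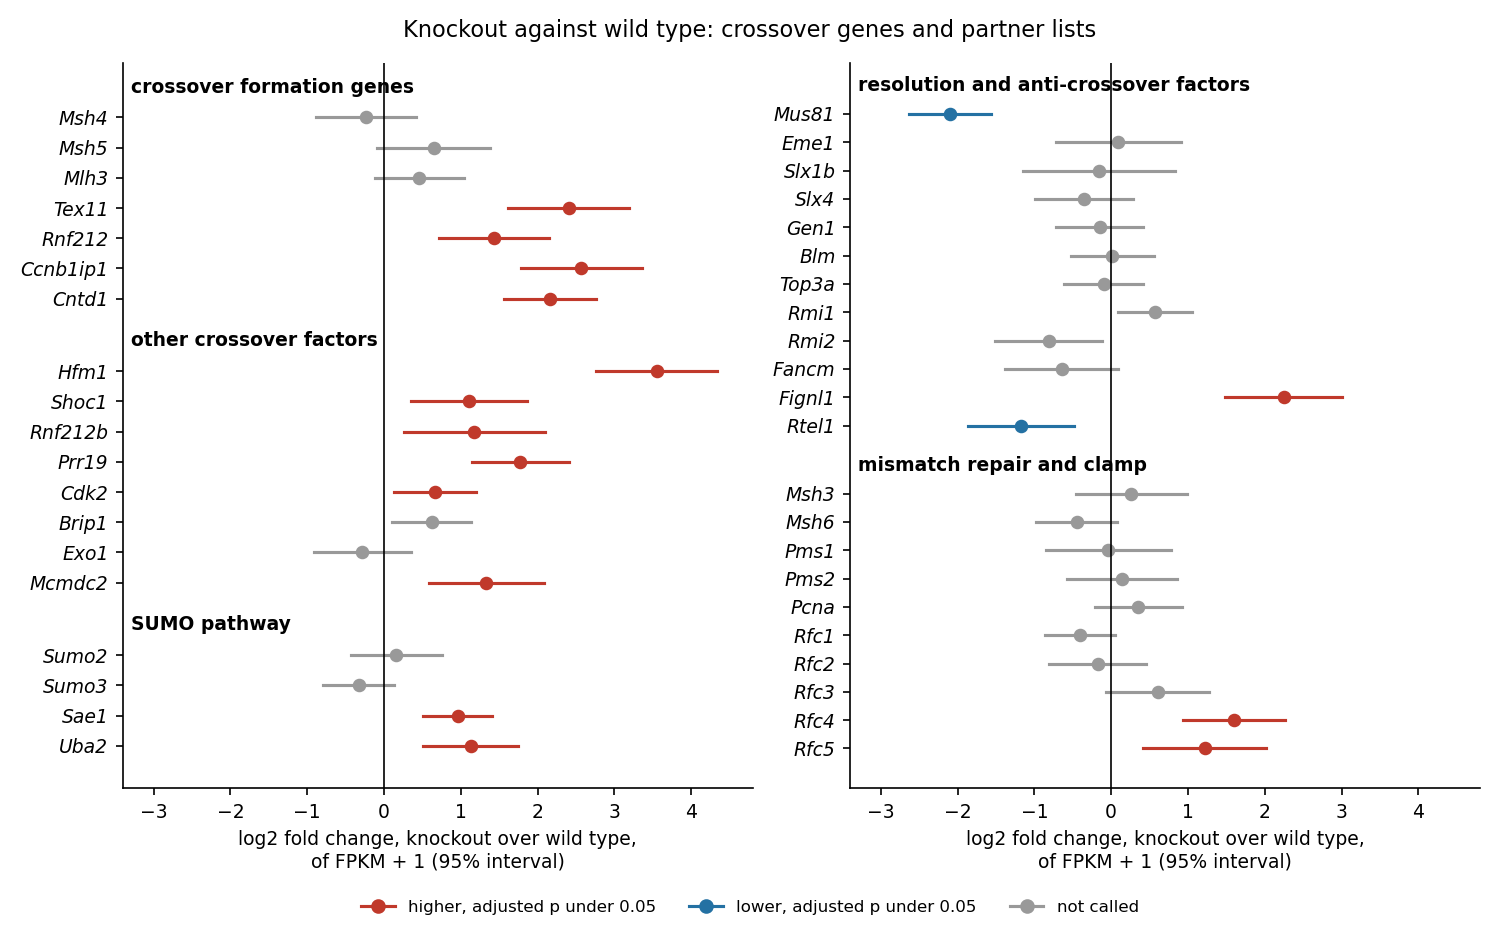
Log2 fold change of KO over WT, from limma on log2(FPKM + 1), for the crossover formation genes and their partners, with 95% intervals as bars. The intervals of Tex11, Rnf212, Ccnb1ip1 and Cntd1 lie above 0 and those of Msh4, Msh5 and Mlh3 cross 0.

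The promoters of the 3 genes called higher that had an entry, and that of Msh5, show where short motifs of known meiotic and cell cycle regulators lie next to these genes. Windows run from 250 bases before to 50 bases after the RefSeq start in GRCm38.p6, written 5′ to 3′ on the strand of the gene, and capitals mark motif matches. Of the 7 genes, 6 had an entry. The windows are chr5:108774978-108775277 (minus strand) for Rnf212, chr14:50795679-50795978 (minus strand) for Ccnb1ip1, chr11:101278953-101279252 (plus strand) for Cntd1 and chr17:35046573-35046872 (minus strand) for Msh5.
Rnf212: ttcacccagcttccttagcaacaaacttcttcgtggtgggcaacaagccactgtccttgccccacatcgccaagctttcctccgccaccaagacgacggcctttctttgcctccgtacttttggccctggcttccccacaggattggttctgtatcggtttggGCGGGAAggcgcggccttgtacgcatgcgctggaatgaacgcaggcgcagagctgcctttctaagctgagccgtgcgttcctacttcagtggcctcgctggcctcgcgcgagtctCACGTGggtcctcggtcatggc
Ccnb1ip1: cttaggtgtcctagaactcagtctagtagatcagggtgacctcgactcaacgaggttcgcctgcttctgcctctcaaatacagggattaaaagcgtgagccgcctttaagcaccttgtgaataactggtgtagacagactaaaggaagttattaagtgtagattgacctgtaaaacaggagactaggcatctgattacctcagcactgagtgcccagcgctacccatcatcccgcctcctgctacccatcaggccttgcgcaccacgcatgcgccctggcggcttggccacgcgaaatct
Cntd1: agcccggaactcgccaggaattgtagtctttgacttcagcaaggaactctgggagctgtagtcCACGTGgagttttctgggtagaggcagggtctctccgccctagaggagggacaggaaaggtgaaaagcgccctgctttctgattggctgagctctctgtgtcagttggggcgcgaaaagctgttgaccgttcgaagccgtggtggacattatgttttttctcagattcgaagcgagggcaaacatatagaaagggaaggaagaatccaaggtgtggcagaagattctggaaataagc
Msh5: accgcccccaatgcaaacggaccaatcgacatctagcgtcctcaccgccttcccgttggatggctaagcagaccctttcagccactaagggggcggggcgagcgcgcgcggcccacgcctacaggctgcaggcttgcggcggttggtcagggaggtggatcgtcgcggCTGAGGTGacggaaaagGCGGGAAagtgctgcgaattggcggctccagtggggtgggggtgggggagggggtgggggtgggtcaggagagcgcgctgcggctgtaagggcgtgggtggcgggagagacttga

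The motifs searched on both strands were the STRA8-MEIOSIN motif CNCCTCAG, the E-box CACGTG, the E2F site TTCCCGC and the NOBOX site TAATTG, none of which overlapped another in these windows. Rnf212 held an E2F match 87 to 81 bases before the start and an E-box 29 to 34 bases after it, and Cntd1 held an E-box 187 to 182 bases before its start. Msh5, which was not called, held the STRA8-MEIOSIN motif 82 to 75 bases and an E2F match 65 to 59 bases before the start. Ccnb1ip1 and Msh4 held none of these letters in their windows, and Mlh3 held TAATTG in both of its entries. The windows of Ccnb1ip1 and Msh4 lay inside the GENCODE M21 genes, whose 5′ ends are at 50807732 and 153906138. The sequence at those ends was not searched. By that annotation the matches of Cntd1 and Msh5 also lay within the genes, whose 5′ ends are at 101279012 and 35046745. Among all 32851 promoters, 7.94% held the STRA8-MEIOSIN motif, 7.15% the E-box, 4.6% the E2F site and 8.0% the NOBOX site. A match is a description of letters and not a binding site.

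Levels compared per exon base, over the exons of all transcripts of a gene, set Tex11, Ccnb1ip1 and Rnf212 apart from the other 4 genes. The order among genes depends on the length used. Rnf212 has 1648 exon bases but 924 in the transcript with the longest coding sequence, and Tex11 has 3624 and 3278. In KO the order of mean FPKM was Tex11, Ccnb1ip1, Rnf212, Mlh3, Cntd1, Msh4 and Msh5, and only Rnf212 and Mlh3 were neighbours whose libraries did not overlap. In WT the order was Tex11, Ccnb1ip1, Rnf212, Mlh3, Msh4, Msh5 and Cntd1, with gaps between Rnf212 and Mlh3 and between Msh4 and Msh5. The mean level of Tex11 was higher than that of 96.4% of tested genes in KO and 77.6% in WT. For Cntd1 these percentiles were 46.9 in KO and 2.94 in WT, the lowest of the 7 genes in WT, and for Msh4 they were 32.8 in KO and 31.9 in WT.

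Within KO, replicate 3 had the lowest value of Tex11, Rnf212, Ccnb1ip1 and Cntd1 alike, and it was also the KO library with the largest sums of pregranulosa and stromal markers. KO replicate 2, with a stromal sum of 279 FPKM, had the highest KO value of Tex11 and ranked 3 in KO for Rnf212, Ccnb1ip1 and Cntd1. Of the 5 oocyte markers, KO replicate 3 had the lowest KO values of Ddx4 (108 FPKM), Dazl (379 FPKM) and Figla (103.9 FPKM), the second highest of Sycp3 (1098 FPKM) and the highest of Zp3 (0.444 FPKM). Without that library the log2 differences were 2.80 for Tex11, 1.75 for Rnf212, 2.80 for Ccnb1ip1 and 2.28 for Cntd1, all called. Without the 3 libraries richest in stromal and pregranulosa markers together (KO replicates 2 and 3, WT replicate 3), a fit chosen after seeing the data, they were 2.62, 1.93, 2.80 and 2.38 in the same order, all called. In that fit Msh4, Msh5 and Mlh3 stood at -0.04, 0.93 and 0.65 and were not called. The fit compared only KO replicates 1 and 4 with WT replicates 1, 2 and 4. Its libraries were not free of somatic markers, as KO replicate 1 had the largest endothelial sum (118 FPKM).

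Across the 8 libraries the 4 called genes followed one another, with Pearson r of log2(FPKM + 1) between 0.866 and 0.965, which includes the difference between the genotypes. Msh5 and Mlh3 followed each other at r = 0.986, and Msh4 had r of -0.34 to 0.04 with the other 6. The genes most like each member over the 8 libraries were Spc25 (r = 0.994) for Tex11, Cpsf2 (0.979) for Rnf212, Ufd1 (0.996) for Ccnb1ip1 and Adad1 (0.997) for Cntd1. For Msh4 the most alike was Xrcc4 (r = 0.966), and for Msh5 and Mlh3 each was the other's. These values describe 8 libraries that share their genotypes and carry no test.

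Ratios within a library do not depend on how libraries are scaled, apart from the pseudocount of 1 FPKM. The log2 ratio of Msh4 to Msh5 was -0.29, 0.31, 0.09 and 0.62 in KO replicates 1 to 4 and 1.03, 1.78, 0.85 and 0.59 in WT replicates 1 to 4. With this pseudocount, KO replicate 4 was the KO library within the WT range. The log2 ratio of Rnf212 to its antagonist Ccnb1ip1 was -0.65, -1.26, -1.52 and -1.57 in KO replicates 1 to 4 and -1.15, -0.19, 0.27 and 0.60 in WT replicates 1 to 4, with KO replicate 1 within the WT range. The ratio of Msh4 to Msh5 averaged 0.18 ± 0.38 in KO and 1.06 ± 0.51 in WT (SD, n = 4 each), and the ratio of Rnf212 to Ccnb1ip1 averaged -1.25 ± 0.42 in KO and -0.12 ± 0.76 in WT (SD, n = 4 each). Both were lower on average in KO with overlapping groups on this scale, and neither ratio was tested. The overlap for Msh4 to Msh5 depends on the pseudocount. Without it, KO replicate 4 (6.63 against 3.95 FPKM) falls just below WT replicate 4 (4.53 against 2.67 FPKM). That is the lowest WT ratio, so the groups then lie narrowly apart.

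**Figure D3:**
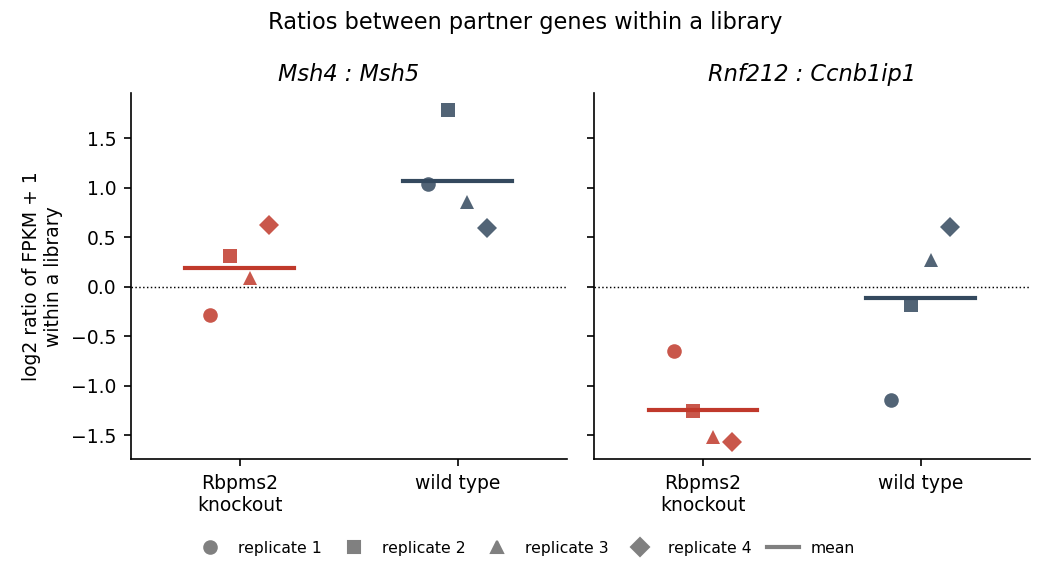
Log2 ratio of FPKM + 1 between partner genes in each library, KO left of WT, with the mean of 4 as a bar. The ratio of Msh4 to Msh5 lay at -0.29 to 0.62 in KO and 0.59 to 1.78 in WT. That of Rnf212 to Ccnb1ip1 lay at -1.57 to -0.65 in KO and -1.15 to 0.60 in WT. Both overlapped on this scale, and the overlap for Msh4 to Msh5 depends on the pseudocount.

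The partners of these genes were read from 4 lists of crossover factors, resolution and anti-crossover factors, mismatch repair and clamp proteins, and SUMO pathway genes. Of 37 genes read, 35 were found and 34 were tested; 11 were called higher in KO, 2 lower and 21 were not called. Without WT replicate 3 or WT replicate 4 the number called higher was 7, and without KO replicate 3 the number called lower was 4. Among the called partners, Rnf212b, Cdk2, Mcmdc2, Mus81, Rfc4 and Rfc5 share 34 to 499 exon bases with a gene on the opposite strand. As for Cntd1, how reads from the shared bases were counted is not known. The median log2 fold change of the partners was 0.15, against -0.12 over all genes tested, and 38.2% were called in either direction, against 43.4% of all genes tested. By direction, 32.4% of the partners were called higher, against 17.7% of all genes tested, and 5.88% lower, against 25.6%.

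Of 8 tested other crossover factors, 6 were called higher with limma, 0 lower and 2 were not called, with a median log2 fold change of 1.14. That is 75% called higher, against 17.7% of all genes tested. The share describes the list only: Hfm1 was at 1 FPKM or more in 3 WT libraries and Mcmdc2 in 1. Neither would have passed the filter on low values without its KO libraries. Limma-voom gave 6 and 0, and an unadjusted p under 0.05 gave 7 and 0. Hfm1, a helicase of the ZMM group, had 42.1, 15.5, 16.8 and 37.5 FPKM in KO replicates 1 to 4, against 1.64, 1.70, 1.03 and 0.791 FPKM in WT replicates 1 to 4. The groups were far apart, with a ratio of means of 21.7 (log2 difference 3.55, limma adjusted p = 3.72e-05, and 2.29 with a pseudocount of 5). Prr19, whose product acts with CNTD1, averaged 50.1 ± 17.1 FPKM in KO and 13.3 ± 2.11 FPKM in WT (SD, n = 4 each; log2 difference 1.78, limma adjusted p = 0.000631), and the kinase gene Cdk2 averaged 17.7 ± 3.75 FPKM in KO and 10.8 ± 2.88 FPKM in WT (SD, n = 4 each; log2 difference 0.67, limma adjusted p = 0.0450). Mcmdc2, an MCM-related gene of break repair, averaged 3.66 ± 2.09 FPKM in KO and 0.752 ± 0.283 FPKM in WT (SD, n = 4 each; log2 difference 1.33, limma adjusted p = 0.00871). The ZIP2-like gene Shoc1 and the Rnf212 paralog Rnf212b had log2 differences of 1.10 and 1.17 (limma adjusted p = 0.0236 and 0.0409). Brip1, a helicase gene, was not called (log2 difference 0.62, limma adjusted p = 0.0525), though all its KO libraries lay above all WT libraries, and it was called in 7 of 22 alternatives. The exonuclease gene Exo1 was not called either (-0.28, limma adjusted p = 0.454).

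Several of these calls lay near the threshold. Cdk2 kept its call in 11 of 22 alternatives, Rnf212b in 13 of 22, Shoc1 in 13 of 21 and Mcmdc2 in 19 of 21, where Mcmdc2 lost it after the GC correction (0.58, limma adjusted p = 0.186). Leaving out KO replicate 1, KO replicate 4, WT replicate 2, WT replicate 3 or WT replicate 4 ended the call of Shoc1 (limma adjusted p = 0.0547 to 0.0673), and its value after the GC correction was 0.55. Any library left out other than KO replicate 3 or WT replicate 2 ended that of Rnf212b (0.0622 to 0.1099), and any other than KO replicate 4 or WT replicate 2 that of Cdk2 (0.0563 to 0.1214).

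Of 12 tested resolution and anti-crossover factors, 1 was called higher, 2 lower and 9 were not called, with a median log2 fold change of -0.15. The shares were 8.33% higher, against 17.7% of all genes tested, and 16.7% lower, against 25.6%. An unadjusted p under 0.05 gave 2 higher and 3 lower, and limma-voom gave 2 and 2. Mus81, the nuclease subunit of the alternative crossover route, had 3.93, 6.30, 5.37 and 3.34 FPKM in KO replicates 1 to 4, against 21.9, 25.3, 19.1 and 26.9 FPKM in WT replicates 1 to 4. It was lower in every KO library, with a ratio of WT to KO means of 4.93 (log2 difference -2.10, limma adjusted p = 8.21e-05). Its partner Eme1 was not called (0.09, 95% interval -0.72 to 0.91, limma adjusted p = 0.860), and the helicase gene Rtel1 averaged 3.20 ± 1.001 FPKM in KO and 8.69 ± 3.48 FPKM in WT (SD, n = 4 each; log2 difference -1.17, limma adjusted p = 0.0113). Without the 3 libraries rich in somatic markers Rtel1 was at -0.73 and not called (limma adjusted p = 0.0941). Fignl1, an AAA ATPase that restrains strand exchange, had 53.2, 20.7, 19.95 and 43.4 FPKM in KO replicates 1 to 4, against 7.63, 7.11, 4.85 and 4.27 FPKM in WT replicates 1 to 4. Its groups were apart, with a ratio of 5.75 (log2 difference 2.25, limma adjusted p = 0.000482).

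Of 10 mismatch repair and clamp genes, 2 were called higher with limma, 0 lower and 8 were not called, and an unadjusted p under 0.05 and limma-voom also gave 2 and 0. The share called higher, 20%, was near the 17.7% of all genes tested. Rfc4 and Rfc5, subunits of the clamp loader, had log2 differences of 1.60 and 1.22 (limma adjusted p = 0.00165 and 0.0199). Rfc4 averaged 185.8 ± 49.1 FPKM in KO and 62.0 ± 23.6 FPKM in WT, and Rfc5 averaged 45.4 ± 16.1 FPKM in KO and 19.2 ± 9.24 FPKM in WT (SD, n = 4 each). Without KO replicate 2, KO replicate 4, WT replicate 3 or WT replicate 4 the call of Rfc5 was lost (limma adjusted p = 0.0509 to 0.0637). Msh6, which takes part in the recognition of mismatches in all cells, was not called at -0.45 (limma adjusted p = 0.148).

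Of 4 SUMO pathway genes, 2 were called higher with limma, 0 lower and 2 were not called, and an unadjusted p under 0.05 and limma-voom also gave 2 and 0. The share called higher was 50%, against 17.7% of all genes tested, and the share called in either direction was also 50%, against 43.4%. Sae1 averaged 113.2 ± 19.3 FPKM in KO and 57.9 ± 11.2 FPKM in WT, and Uba2 averaged 101.1 ± 38.2 FPKM in KO and 43.4 ± 7.46 FPKM in WT (SD, n = 4 each). These genes, which encode the SUMO-activating enzyme, had log2 differences of 0.96 and 1.13 (limma adjusted p = 0.00313 and 0.00782).

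**Figure D4:**
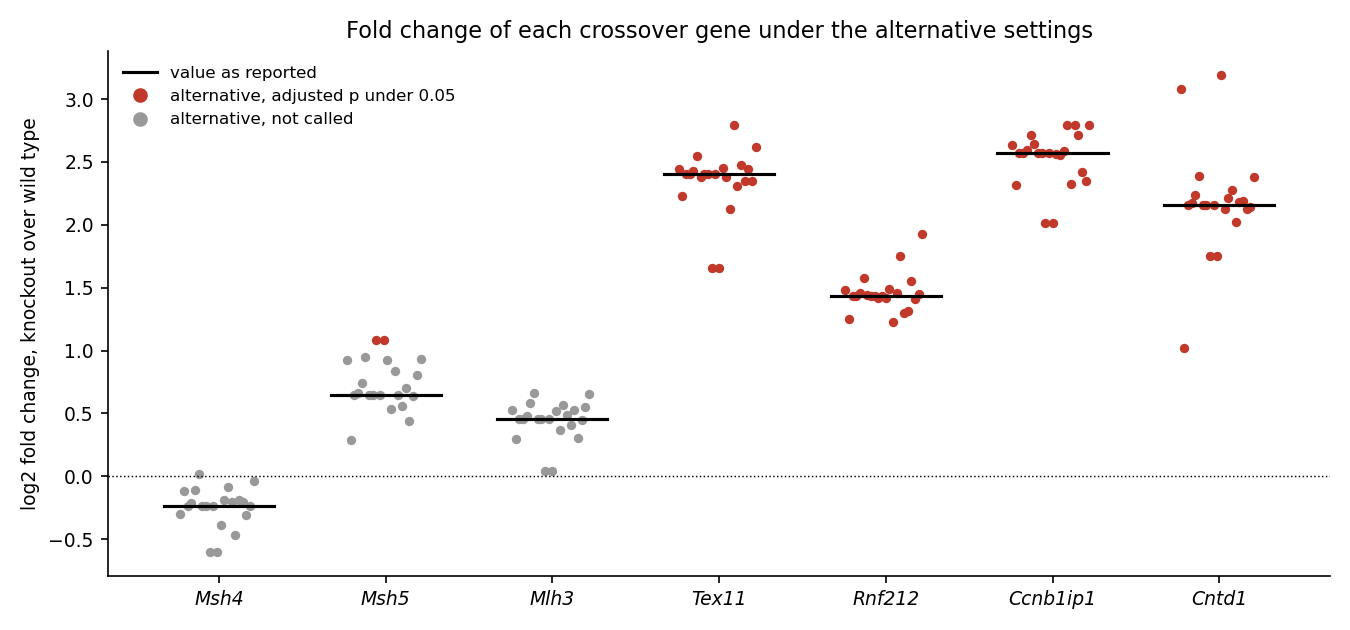
Log2 fold change of KO over WT for each crossover formation gene as reported (black line) and under the alternatives (points, red where called and grey where not). Tex11 stayed between 1.66 and 2.80, Rnf212 between 1.22 and 1.93, Ccnb1ip1 between 2.01 and 2.80 and Cntd1 between 1.02 and 3.19, whereas Msh4 lay between -0.60 and 0.02.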

How the data were processed

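RNA-seq of P1 oocytes was given as 1 table of FPKM values, which the authors deposited for 8 libraries, 4 per genotype. Per the submitters' processing notes, cutadapt, HISAT2 and HTSeq were used with GRCm38 (mm10), and no source used here gives versions, annotation or strand setting. Symbols were matched for 21851 of 21959 genes in the reference tables, and exon lengths for 21902 came from GENCODE M21. FPKM times exon length came in whole reads for 97.4% to 97.6% of nonzero values per library (within 0.02 reads), which gave depths and an added limma-voom fit. Reads after amplification without molecular identifiers are not independent molecules, so counts limit counting error only. Within a genotype every pair of libraries differed by more than sampling noise, with a chi-square of at least 33.6 for each degree of freedom.

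The 11235 genes that reached 1 FPKM in 4 libraries entered the fit. In R 4.3.3, limma 3.58.1 modelled log2(FPKM + 1) by genotype alone, with a trended eBayes step, and p-values were adjusted over all these genes by Benjamini and Hochberg's method. Fold changes on this scale understate low genes, and ratios are of mean FPKM. Single genes also had an exact two-sided permutation test over 70 splits. The genes named were all 7 members, Rbpms2, overlapping genes, and members of 4 partner lists, each of which could be named. Members, lists and markers were chosen with earlier results of these data known. Spo16 and Firrm are not analysed here, and some genes of the partner lists are not reported here and are left out of every partner count. The 22 alternatives changed the pseudocount (0.1, 5), filter (none, 5 FPKM), scaling, variance model, GC correction (loess, span 0.5), replicate block, count model and libraries. Steps were tested on simulated data. Promoters came from RefSeq and 3′ untranslated regions from GENCODE M21. Other steps ran in Python 3.11.15 with scipy 1.17.1, pandas 2.3.3, numpy 2.4.6 and matplotlib 3.10.9.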

Additional observations from a re-analysis of the deposited data

Results flagged for a closer look

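Among 86 groups of 4 libraries for the crossover genes and their partners, 5 held a library far from the other 3 by Dixon's test, and chance flags about 1 in 20. None was a value of the 7 crossover formation genes. Cdk2 was 15.1 FPKM in WT replicate 2, against 9.20 to 9.72 FPKM in the other WT libraries. Slx4, a scaffold for nucleases, was 2.20 FPKM in KO replicate 3, against 4.31 to 4.49 FPKM in the other KO libraries, and 7.49 FPKM in WT replicate 4, against 4.31 to 4.53 FPKM in the other WT libraries. Fancm, a helicase gene, was 5.79 FPKM in WT replicate 4, against 2.94 to 3.09 FPKM in the other WT libraries. Slx1b, whose product is the nuclease partner of SLX4, was 0.772 FPKM in WT replicate 2, against 1.48 to 1.57 FPKM in the other WT libraries.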

How the results depend on the processing

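The counts of called members were 3 to 5 higher and 0 lower over 22 alternatives: 5 with the GC correction, which added Msh5, and 3 with the filter at 5 FPKM, where Cntd1 was not tested. The GC correction put Tex11 at 1.66, Rnf212 at 1.42, Ccnb1ip1 at 2.01 and Cntd1 at 1.75, all called. It put Msh4 at -0.60, not called, and the partner Hfm1 at 2.75, called. Leaving out 1 library left 4 members, 7 to 12 partners and 1516 to 1949 of all genes higher, and 0, 2 to 4 and 2393 to 3011 lower. Partners called lower numbered 2 as reported, 5 with the GC correction, 4 with the replicate block with GC correction and 1 without the 3 libraries rich in somatic markers. The sign turned for genes that were not called: Msh4 was 0.0177 with quantile normalization, Brip1 was -0.0118 with the GC correction with or without the block, and Eme1 was -0.12 without KO replicate 2, -0.16 without WT replicate 3 and -0.0249 without the 3 libraries. With 1 library left out the highest value of Eme1 was 0.3921. The cause was not tested. The median log2 fold change of all tested genes was -0.12 as reported, 0.00 with median-of-ratios scaling and 0.04 with quantile normalization, which shifts the small differences of Msh4, Msh5 and Mlh3. Whether replicate numbers pair the libraries was not settled: same-numbered KO and WT libraries correlated at 0.19, 0.02, 0.36 and -0.05. KO replicates 1 and 3 each correlated best with the WT library of the same number, and 0.36 was the highest of all pairs. KO replicate 2 correlated best with WT replicate 3 (0.09) and KO replicate 4 with WT replicate 1 (0.33). The replicate block gave 2113 genes higher and 2921 lower, against 1991 and 2880, with 4 members called in both. Of the members, Cntd1 had the fewest reads per WT library (21 to 40), which limits its precision.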

Other observations

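RBPMS proteins are known to bind RNA with CAC repeats, so the 3′ untranslated regions of the crossover formation genes were read for tandem CAC (CAC, 1 to 12 bases, CAC) in GENCODE M21. This is a description with no test, and it does not show binding. For each gene only the transcript with the longest coding sequence was read, and 6 of the 7 genes had an annotated region in it. The Rnf212 transcript had 921 coding bases of 924 and no such region, and its other transcripts were not read. Cntd1 held 6 tandem pairs in 1120 bases, Ccnb1ip1 held 3 in 565 bases, Msh4 held 1 in 294 bases and Mlh3 held 1 in 242 bases, whereas Msh5 (136 bases) and Tex11 (257 bases) held 0. Among the tested genes 73.8% held at least 1, and among regions of like length the share was 89.0% for Cntd1, 69.3% for Ccnb1ip1 and 43.4% for Tex11. Tandem counts grow with length: per 100 bases, Ccnb1ip1 had 1.06 CAC and Cntd1 had 1.43, against a median of 1.45 among tested genes, and Mlh3, which was not called, had 2.07. The densest 21-base windows of the genes with the most tandem pairs are shown with CAC in capitals.
Ccnb1ip1: CACACaatCACattgttgCAC
Cntd1: CACtataCACACcaggctggg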
